A study of Sparus aurata with 6 samples.

Results

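Garlic essential oil, carvacrol and thymol were fed to gilthead seabream (Sparus aurata), and skin RNA was measured on an oligonucleotide array. Of the 15156 sequences on the array, 100 are described here: those whose probes all gave a higher signal in every pool of the phytogenic-supplemented diet than in every pool of the control diet. They were chosen on this very contrast. A sequence needed at least 2 different probes, each well above background on all 3 phytogenic arrays and with no overlap between the diets. Of the 6780 sequences with 2 or more probes, 134 met these conditions (1.98% of them, and 2.59% of the 5165 whose probes were all well above background on the phytogenic arrays), and the 100 with the largest value of their least changed probe were kept. They hold 302 probes, with 3 probes for 96 sequences, 4 for 3 and 2 for 1 of them. Because the differences between the diets selected the sequences, those differences are described here and were not tested.

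Juveniles received either a control diet or that diet plus 0.5% of a microencapsulated additive (synthetic garlic oil, carvacrol, thymol) over 65 days. Skin RNA of 4 fish was combined into a pool, there were 3 pools per diet, and every pool was hybridized to 1 one-color array. All fish, on both diets, had been treated with hydrogen peroxide and formaldehyde after transport, before the trial. Each diet was fed in separate tanks, and which fish formed which pool is not given in the sources used here.

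Fish skin is a living mucosal barrier. Its epidermis holds keratinocytes and mucus-secreting cells and lies over a dermis that carries the scales, with leukocytes in both layers. Carvacrol and thymol are phenolic compounds of oregano and thyme oils, and garlic oil carries organosulfur compounds. All are known for antimicrobial and antioxidant properties. In RNA from whole skin, a change in the number of cells of a type and a change in the RNA per cell cannot be told apart.

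The sequences on this array come from expressed sequence tags, that is, reads of single cDNA clones (as the form of the names beginning with cDN or SCT has it) and contigs assembled from several such reads. The array files name each sequence by its clone or contig, and 0 of the 15156 names were found in the gene table of the reference annotation. The gene list supplied with the paper carries no clone, contig or probe names. No gene name, function or tissue marker could therefore be attached to a sequence, and the labelled tissue was not checked against marker genes. Values are the log2 signal of a probe minus the 75th percentile of its array, so that 0 is the level below which 75% of the probes of an array lie. They are averaged over the probes of a sequence. A signal also depends on how well a probe binds, so values were compared between pools and not between sequences. Between 68.6% and 86.3% of the spots of an array were well above background, lowest on control pool 1, and 0 spots were saturated. The 75th percentile itself ranged from a log2 signal of 9.92 on control pool 1 to 10.62 on control pool 2.

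Few sequences had all of their probes separated between the diets. Among the probes of the sequences with 2 or more probes, 1675 (8.20%) were well above background on the phytogenic arrays and higher in every phytogenic than in every control pool, which is 9.81% of those above background there. Of the 6605 sequences with exactly 3 probes, 1131 had at least 1 such probe, 756 had it for 1 probe only, 246 for 2 and 129 for all 3. The mirrored conditions, with every control pool above every phytogenic pool, were met by 154 sequences (2.27%, or 3.58% of the 4300 whose probes were all well above background on the control arrays) and by 1394 probes (6.83%). At the lower end of the list, cDN08P0003K13.F.ab1 and cDN08P0002B19.F.ab1 (ranks 99 and 100) had a least changed probe at 0.245 and 0.243 on the log2 scale, while Contig305 and Contig2493, the first 2 sequences left out, stood both at 0.235.

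The differences were mostly moderate. Averaged over probes, the phytogenic pools exceeded the control pools by less than 1.5-fold in 61 of the 100 sequences, by 1.5-fold to 2-fold in 26 and by 2-fold or more in 13. The median difference was 0.51 on the log2 scale (1.42-fold) and the range was from 0.27 to 2.88. Judged by the least changed probe alone, 73 sequences were under 1.5-fold and 9 reached 2-fold. In 19 sequences these folds include a probe that was not well above background on every control array. The median difference of the 19 was 0.93 on the log2 scale, against 0.47 in the other 81. Over the 5165 sequences with every probe well above background on the phytogenic arrays, the median difference was 0.02, which gives the center of the values from which the 100 were drawn. After averaging over probes, the lowest phytogenic pool lay above the highest control pool by a median of 0.27 on the log2 scale, and by as little as 0.026 in 1 sequence. Over the 302 single probes, to which the condition applied, the median gap was 0.22 and the lowest 0.0027.

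**Figure D1:**
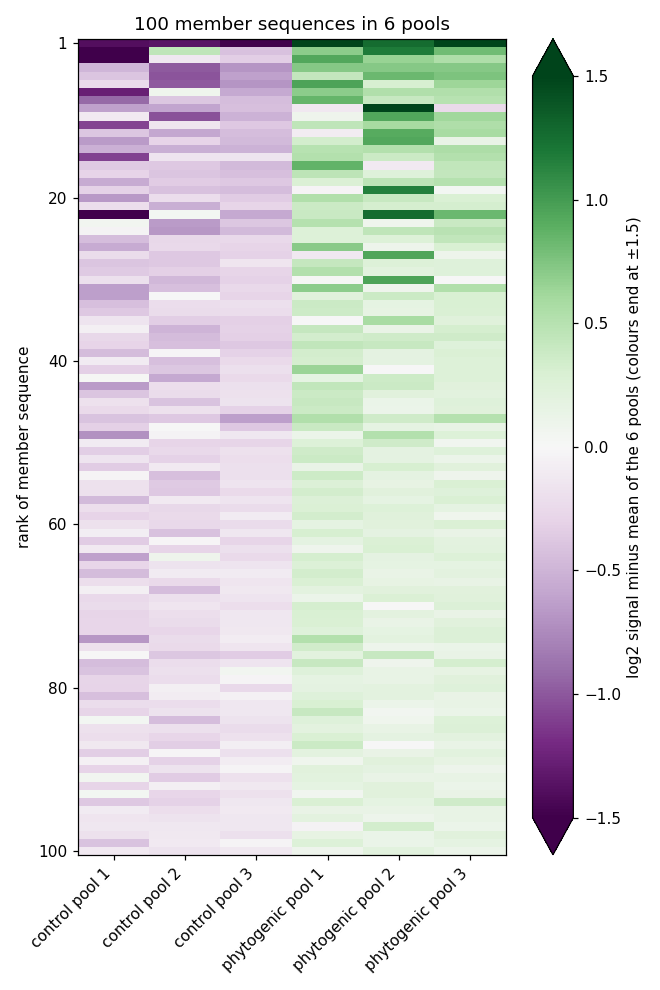
Log2 signal of the 100 sequences in the 6 pools, as the difference from the mean of the 6 pools (purple below, green above), with sequences ordered by rank on the y axis. The selection makes every phytogenic pool higher than every control pool. Colors end at ±1.5 and fade from the first ranks, where differences reached 2.88, to the last, where they were near 0.27.

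One sequence stood far ahead of the rest. Seabream_2006-01-03-CL3310Contig1 (rank 1) had log2 values of -4.06, -4.02 and -4.25 in control pools 1, 2 and 3, and of -1.10, -1.41 and -1.18 in phytogenic pools 1, 2 and 3. Its means were -4.11 ± 0.12 and -1.23 ± 0.16 (SD, n = 3 pools per diet), a difference of 2.88 or 7.35-fold, and its 3 probes differed by 2.57 to 3.31 on the log2 scale. The diets were separated by 2.61 between the lowest phytogenic and the highest control pool, against SDs of 0.12 and 0.16 within the diets. Of its 3 probes, 2 were well above background on all 6 arrays, and these differed by 2.57 and 2.75. The third, with the largest difference, reached that level in a single control pool, so no fold is given for it, and the 7.35-fold difference of the sequence includes it. The other 2 probes gave 5.95-fold and 6.73-fold. With the normexp background, in which a constant is added to every corrected signal, the least changed probe of this sequence was 1.81 higher.

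Among the first 20 ranks, 11 sequences had every probe well above background on all 6 arrays. SCT1103_E03_JP14_3E3_012.ab1 (rank 4) had log2 values of 1.37, 0.87 and 1.17 in control pools 1, 2 and 3, and of 2.58, 2.57 and 2.58 in phytogenic pools 1, 2 and 3. Its means were 1.14 ± 0.25 and 2.58 ± 0.0020 (SD, n = 3 pools per diet), a difference of 1.44 or 2.72-fold, and its 3 probes differed by 1.33 to 1.55 on the log2 scale. The 3 phytogenic pools nearly coincide after averaging, but the phytogenic SD of its single probes was between 0.037 and 0.11, wider than that of the average. For cDN02P0003I22.F.ab1 (rank 14), the control pools 1, 2 and 3 gave -0.49, -0.50 and -0.48 on the log2 scale, against 0.53, 0.55 and 0.58 in phytogenic pools 1, 2 and 3. Its means were -0.49 ± 0.013 and 0.56 ± 0.028 (SD, n = 3 pools per diet), a difference of 1.05 or 2.06-fold, and its 3 probes differed by 0.86 to 1.28 on the log2 scale. After averaging, both diets were tight here, and the gap of 1.01 between them was the widest of the 100 sequences relative to that spread. The single probes of cDN02P0003I22.F.ab1 had wider SDs, 0.083 to 0.10 on the control and 0.036 to 0.10 on the supplemented diet.

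For Contig2821 (rank 5), the control pools 1, 2 and 3 gave -2.77, -3.38 and -2.98 on the log2 scale, against -1.94, -1.54 and -1.61 in phytogenic pools 1, 2 and 3. The difference between its means, -3.04 ± 0.31 on the control and -1.70 ± 0.21 on the supplemented diet (SD, n = 3), was 2.54-fold, with single probes between 2.46-fold and 2.65-fold. No pool of either diet lay close to the other diet. In Contig607 (rank 18), log2 values went from 1.18, 1.39 and 1.36 (control pools 1, 2 and 3) to 2.01, 2.20 and 2.24 (phytogenic pools 1, 2 and 3). This made 2.15 ± 0.12 (SD, n = 3) against 1.31 ± 0.12 on the control diet, 0.84 higher on the log2 scale. Its pools were 0.62 apart between the diets. Seabream_2006-01-03-CL379Contig1 (rank 17) had log2 values of -0.28, -0.37 and -0.40 in control pools 1, 2 and 3, and of 0.48, 0.27 and 0.45 in phytogenic pools 1, 2 and 3. Its means were -0.35 ± 0.066 and 0.40 ± 0.11 (SD, n = 3 pools per diet), a difference of 0.75 or 1.68-fold, and its 3 probes differed by 0.74 to 0.78 on the log2 scale. The 3 probes of this sequence gave almost the same difference, and the gap between the diets was 0.55.

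In other sequences of high rank, 1 phytogenic pool stood apart. cDN10P0005A21.F.ab1 (rank 9) had log2 values of -1.30, -1.28 and -1.12 in control pools 1, 2 and 3, and of -0.82, 1.30 and -0.93 in phytogenic pools 1, 2 and 3. Its means were -1.23 ± 0.10 and -0.15 ± 1.26 (SD, n = 3 pools per diet), a difference of 1.08 or 2.12-fold, and its 3 probes differed by 1.03 to 1.12 on the log2 scale. Phytogenic pool 2 was 2.11 above the next pool and each of the 3 probes showed it, whereas the lowest phytogenic pool exceeded the highest control pool by 0.19. For cDN04P0006E11.F.ab1 (rank 19), the control pools 1, 2 and 3 gave 0.31, 0.20 and 0.18 on the log2 scale, against 0.58, 1.77 and 0.65 in phytogenic pools 1, 2 and 3. Here too phytogenic pool 2 lay 1.11 above the nearest pool, and the mean of the phytogenic pools was 1.00 ± 0.66 against 0.23 ± 0.067 (SD, n = 3). The folds of the means were 2.12 and 1.70, and in both sequences phytogenic pools 1 and 3 lay below the phytogenic mean. Without phytogenic pool 2 the least changed probes were 0.32 and 0.26 higher, from 1.03 and 0.68.

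In cDN02P0003K19.F.ab1 (rank 13), log2 values went from -3.24, -2.90 and -3.05 (control pools 1, 2 and 3) to -2.26, -1.66 and -2.46 (phytogenic pools 1, 2 and 3). This made -2.13 ± 0.42 (SD, n = 3) against -3.07 ± 0.17 on the control diet, 0.94 higher on the log2 scale. Phytogenic pool 2 was again the highest, by 0.60. Contig2822 (rank 12) had log2 values of -0.0030, -0.19 and -0.059 in control pools 1, 2 and 3, and of 0.30, 1.29 and 0.96 in phytogenic pools 1, 2 and 3. The difference between its means, -0.085 ± 0.10 on the control and 0.85 ± 0.51 on the supplemented diet (SD, n = 3), was 1.91-fold, with single probes between 1.83-fold and 1.98-fold. In this contig, phytogenic pool 1 was the lowest, 0.66 below the next. For Seabream_2006-01-03-CL2841Contig1 (rank 10), the control pools 1, 2 and 3 gave 4.11, 3.20 and 3.72 on the log2 scale, against 4.31, 5.15 and 4.84 in phytogenic pools 1, 2 and 3. This made 4.77 ± 0.42 (SD, n = 3) against 3.68 ± 0.46 on the control diet, 1.09 higher on the log2 scale. Phytogenic pool 1 lay 0.53 below the other 2 and control pool 2 0.52 below the other control pools. cDN01P0003A07.F.ab1 (rank 16) had log2 values of -3.63, -3.64 and -3.74 in control pools 1, 2 and 3, and of -2.41, -3.39 and -2.84 in phytogenic pools 1, 2 and 3. This made -2.88 ± 0.49 (SD, n = 3) against -3.67 ± 0.060 on the control diet, 0.79 higher on the log2 scale. Its 3 control pools were close together and the phytogenic pools were spread, with pool 2 the lowest. Its least changed probe, 0.74 higher, was 0.48 higher without phytogenic pool 1 and 0.39 with normexp.

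Across the 100 sequences, a phytogenic pool was at least 0.5 apart from the nearest pool of its diet in 8 sequences. In 5 of them it was phytogenic pool 2 that was higher, in 1 phytogenic pool 2 that was lower, and in 2 phytogenic pool 1 that was lower. A control pool was that far apart in 8 sequences as well, with control pool 1 below the others in 7 and control pool 2 below in 1. Of the 5165 sequences with every probe well above background on the phytogenic arrays, 7.49% had such a phytogenic pool and 18.5% such a control pool. The condition of no overlap leaves out sequences in which a pool reached the other diet.

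**Figure D2:**
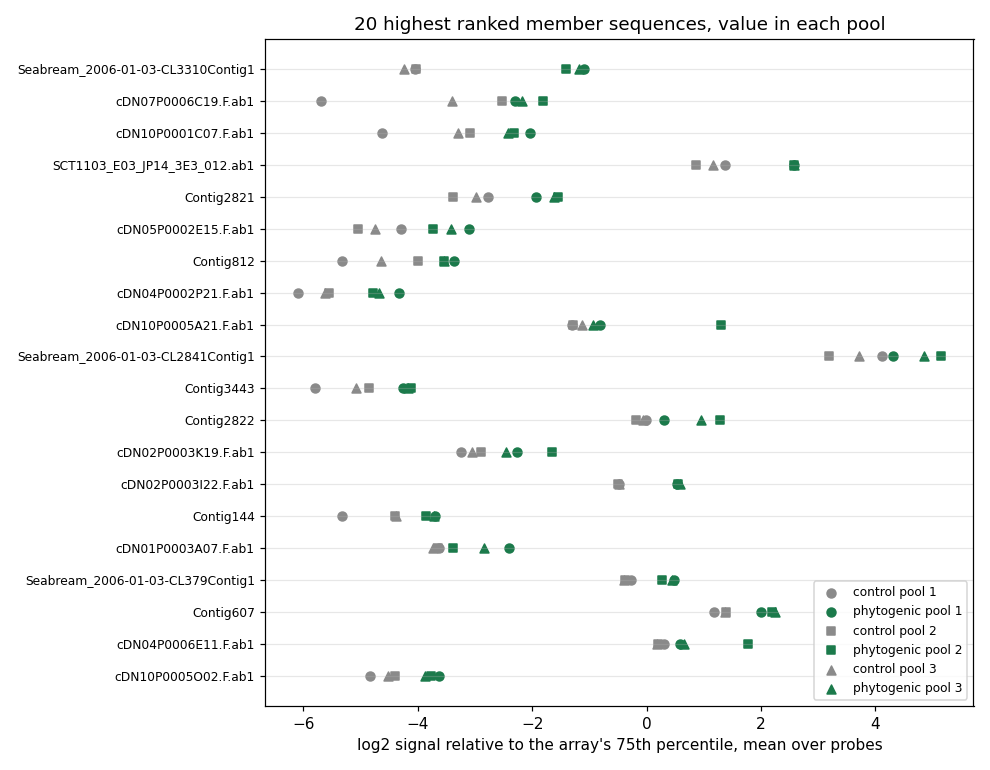
Log2 signal relative to the 75th percentile of the array, averaged over probes, for the 20 sequences of highest rank (gray, control pools; green, phytogenic pools; circle, square and triangle for pools 1, 2 and 3). In cDN10P0005A21.F.ab1 and cDN04P0006E11.F.ab1, phytogenic pool 2 lies far to the right of the other 2. In cDN02P0003I22.F.ab1 the pools of each diet nearly coincide after averaging, while its single probes spread more widely.

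The other 9 of the first 20 ranks, CL3310Contig1 included, had at least 1 probe that was not well above background on some control array. Their least changed probes differed less with the normexp background. The constant added in that setting shrinks log2 differences most where signals are dim, so a larger drop in these sequences is partly built in. That setting also starts from the median spot signal and not from the processed signal. What the background correction itself contributes was not tested. The least changed probe had a median difference of 1.09 in these 9, and of 0.29 with the normexp background (range from 0.020 to 1.81). In the 11 sequences above background on all 6 arrays the medians were 0.86 and 0.79. With normexp, the least changed probe was lower by over 1.5 times, as a ratio of log2 differences, in 8 of the 9. The same held in 1 of the 11 (cDN01P0003A07.F.ab1, at 0.39). CL3310Contig1, the other of the 9, was lower as well, at 1.81 against 2.57, but by a smaller ratio. cDN07P0006C19.F.ab1 (rank 2) had log2 values of -5.70, -2.53 and -3.40 in control pools 1, 2 and 3, and of -2.29, -1.81 and -2.18 in phytogenic pools 1, 2 and 3. Its means were -3.88 ± 1.64 and -2.10 ± 0.25 (SD, n = 3 pools per diet), a difference of 1.78 or 3.44-fold, and its 3 probes differed by 1.57 to 2.12 on the log2 scale. Control pool 1 was 2.30 below the next control pool and control pool 2 was 0.24 below the lowest phytogenic pool, and the control SD was the widest of the 100 sequences. Its least changed probe was 1.57 higher with all arrays, 0.83 without control pool 1 and 0.72 with normexp. For cDN10P0001C07.F.ab1 (rank 3), the control pools 1, 2 and 3 gave -4.63, -3.09 and -3.29 on the log2 scale, against -2.03, -2.32 and -2.42 in phytogenic pools 1, 2 and 3. The difference between its means, -3.67 ± 0.84 on the control and -2.26 ± 0.20 on the supplemented diet (SD, n = 3), was 2.67-fold, with single probes between 2.56-fold and 2.75-fold. Control pool 1 was again the lowest, 1.34 below the next, and the least changed probe went from 1.36 to 0.83 without it and to 0.56 with normexp.

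In Contig812 (rank 7), log2 values went from -5.33, -3.99 and -4.64 (control pools 1, 2 and 3) to -3.36, -3.53 and -3.53 (phytogenic pools 1, 2 and 3). For Contig144 (rank 15), the control pools 1, 2 and 3 gave -5.32, -4.39 and -4.39 on the log2 scale, against -3.71, -3.85 and -3.71 in phytogenic pools 1, 2 and 3. In both contigs control pool 1 was the lowest of the 6 pools, 0.70 and 0.93 below the nearest. Their folds of the means were 2.26 and 1.92, but with normexp their least changed probes were 0.29 and 0.16 higher, from 1.09 and 0.78. For Contig144 it was 0.42 without control pool 1 and 0.28 against control pool 3 alone. cDN05P0002E15.F.ab1 (rank 6) had log2 values of -4.29, -5.05 and -4.74 in control pools 1, 2 and 3, and of -3.10, -3.74 and -3.43 in phytogenic pools 1, 2 and 3. For cDN04P0002P21.F.ab1 (rank 8), the control pools 1, 2 and 3 gave -6.10, -5.55 and -5.61 on the log2 scale, against -4.33, -4.78 and -4.69 in phytogenic pools 1, 2 and 3. In cDN10P0005O02.F.ab1 (rank 20), log2 values went from -4.83, -4.39 and -4.52 (control pools 1, 2 and 3) to -3.64, -3.77 and -3.88 (phytogenic pools 1, 2 and 3). These 3 clones had control SDs between 0.23 and 0.38, and their means differed by 2.41-fold, 2.23-fold and 1.76-fold. With normexp the least changed probes of cDN05P0002E15.F.ab1, cDN04P0002P21.F.ab1 and cDN10P0005O02.F.ab1 were 0.35, 0.079 and 0.056 higher, from 1.18, 1.09 and 0.68. Each of the 3 probes of cDN04P0002P21.F.ab1 reached the level well above background on 1 control array.

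Contig3443 (rank 11) had log2 values of -5.80, -4.86 and -5.09 in control pools 1, 2 and 3, and of -4.26, -4.12 and -4.17 in phytogenic pools 1, 2 and 3. It carries 4 probes, which differed by 0.99 to 1.24. Its least changed probe, 0.99 higher, was 0.54 higher without control pool 1 and 0.020 higher with normexp. Its probe CUST_18211_PI419285025 was not well above background on any control array. For that probe the signal was at least 1.66-fold higher on the supplemented diet, a bound that takes, on each control array, the higher of the probe's own signal and the lowest signal of a probe well above background. Its measured means were -6.00 ± 0.18 on the control and -4.99 ± 0.036 on the supplemented diet (SD, n = 3).

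Dim control signals concentrated on 1 array. Of the 302 probes, 258 were well above background on all 3 control arrays, 36 on 2, 7 on 1 and 1 on none. Control pool 1, the array with the fewest spots above background, accounted for 44 such dim probes, control pool 3 for 8 and control pool 2 for 1. Over all spots of the arrays, 68.6%, 77.1% and 85.9% were well above background on control pools 1, 3 and 2, so the arrays stood in the same order. The 19 sequences with a dim probe had a median difference of 0.93 on the log2 scale, against 0.47 for the 81 with every probe well above background on 6 arrays. Detection was required on the phytogenic arrays only, and all 44 dim probes were dim on control pool 1. A larger difference and a low control pool 1 in the 19 are therefore partly built in. The share of sequences with a dim probe among the 5165 is not given here. Control pool 1 was the lowest control pool in 16 of the 19 and in 33 of the 81, and in 46.1% of the 5165 sequences. In the 19, the phytogenic mean exceeded control pool 1 by a median of 1.06 and the mean of control pools 2 and 3 by 0.78. In the 81 these distances were 0.49 and 0.48.

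By median, the ranks below the first 20 held smaller differences than the first 20, where the median of the mean differences was 1.07. From rank 21 to 50 the mean differences ran from 0.45 to 1.65 (Contig2110, rank 22), with a median of 0.61, and 6 of the 30 sequences had a dim probe. From rank 51 to 100 they ran from 0.27 to 0.66, with a median of 0.41, and 4 of the 50 had one. Some small differences were still well separated after averaging over probes. Seabream_2006-01-03-CL3059Contig1 (rank 58) had -1.54 ± 0.028 on the control and -1.07 ± 0.055 on the supplemented diet (SD, n = 3), 1.38-fold, with 0.38 between the nearest pools of the 2 diets. cDN10P0003N21.F.ab1 (rank 96), 1.23-fold, had 3.14 ± 0.020 and 3.43 ± 0.043. Contig1884 (rank 37) had -2.13 ± 0.098 and -1.43 ± 0.013, or 1.62-fold. These 3 were picked after their values were seen, for a gap that is wide relative to the spread of the averaged pools. Single probes spread more widely. In Seabream_2006-01-03-CL3059Contig1 their SDs were 0.054 to 0.14 on the control and 0.030 to 0.13 on the supplemented diet. In Contig1884 they were 0.17 to 0.32 and 0.021 to 0.072.

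Among sequences with every probe well above background on all 6 arrays, Seabream_2006-01-03-CL2678Contig1 (rank 68) had the highest control value and is given, with the lowest, only to span the range of signals, not to compare the abundance of transcripts. Its control pools 1, 2 and 3 gave 3.96, 3.58 and 3.90 and its phytogenic pools 4.22, 4.24 and 4.24, a 1.33-fold difference of means. The lowest value was that of Contig675 (rank 62), with -3.82, -3.50 and -3.77 against -3.29, -3.20 and -3.28, or 1.35-fold. In both, control pool 2 stood apart from the other control pools, toward lower signal in the first and toward higher signal in the second.

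Besides Contig3443, 2 sequences carried 4 probes. In Seabream_2006-01-03-CL2315Contig1 (rank 59), log2 values went from -1.69, -1.64 and -1.50 (control pools 1, 2 and 3) to -1.07, -1.18 and -1.32 (phytogenic pools 1, 2 and 3). Its 4 probes differed by 0.39 to 0.47, and the fold of the means was 1.34. For cDN12P0005A20.F.ab1 (rank 83), the control pools 1, 2 and 3 gave -3.78, -3.67 and -3.63 on the log2 scale, against -3.09, -3.44 and -3.38 in phytogenic pools 1, 2 and 3. Its probes differed by 0.30 to 0.50, with a 1.31-fold difference of the means. In both sequences the gap between the diets was 0.18 to 0.19, and phytogenic pool 1 was the highest of the 6 pools.

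The probes of a sequence gave similar differences in most cases. The range over the probes of a sequence had a median of 0.14 and an upper quartile of 0.23 on the log2 scale. Over the 5165 these were 0.18 and 0.31. The rule required every probe to separate the diets, so a narrower range may be partly built in. The narrowest range of the 100, named after its value was seen, was that of cDN05P0004D15.F.ab1 (rank 95), whose 3 probes differed by 0.27 to 0.28. The widest was Contig2110 (rank 22), from 0.67 to 2.65. Its control pools gave -5.11, -3.13 and -3.74 and its phytogenic pools -2.77, -1.91 and -2.34, so control pool 1 was 1.37 below the next pool. Pearson's r between the differences of the first and the second probe by name was 0.88 over the 100 sequences and 0.69 over the 5165, given as a description since the rule required the same direction from every probe.

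**Figure D3:**
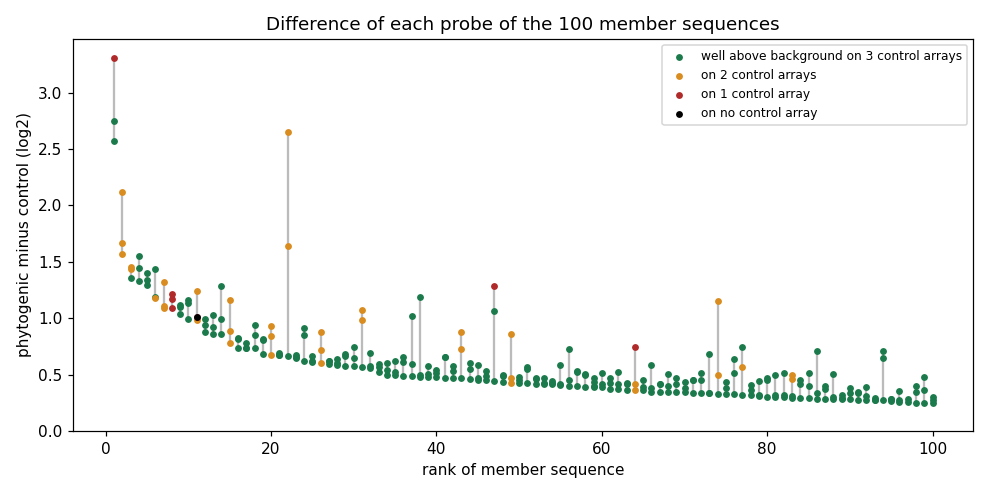
Difference between the phytogenic and the control mean (log2) for each of the 302 probes, by rank of the sequence, with a gray line over the probes of one sequence and colors for the number of control arrays on which the probe was well above background. Ranking used the lowest point of each line. The longest line, at rank 22, runs from 0.67 to 2.65 in Contig2110, and its highest point is a probe that was well above background on 2 control arrays.

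Variation within a diet was shared by the probes of a sequence to differing degrees. After the mean of each diet was removed, the lowest correlation between 2 probes of a sequence over the 6 arrays had a median of 0.62. It exceeded 0.9 in 17 sequences and was below 0 in 28, where pools of one diet differed by amounts that the probes did not share. Of the 302 probes, 235 lay on 1 spot and 67 on several. For these 67, the SD between the spots of 1 probe on an array had a median of 0.061 on the log2 scale. The SD between pools had a median of 0.13 on the control and 0.10 on the supplemented diet. It was taken over the 100 sequences after averaging over probes, so these SDs differ in probes covered and in averaging. The spots of different probes of a sequence lay apart on the grid of 532 rows and 85 columns, with a median of 43.3 grid steps between the nearest of them and under 3 steps in 1 sequence.

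The median correlation between 2 of the 100, over deviations from the diet means, was 0.057, and 27.7% of the pairs were over 0.5, against 0.0093 and 28.5% over the 5165. The first axis of this variation held 57.3% of it, and 61.7% over the 5165. In the 100 it set control pool 1 against control pool 2. The second set phytogenic pool 2 against phytogenic pools 1 and 3. Some contigs with close numbers were both in the list. Contig3302 and Contig3304 correlated at 0.92 over these deviations, Contig2821 and Contig2822 at 0.70, and Contig3205 and Contig3208 at 0.59, each over 6 arrays. Whether close numbers mark related transcripts is not given in the sources used here, and these pairs were picked after the list was seen.

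Each array was on a slide of its own. The slide number of control pool 3 directly precedes those of the 3 phytogenic pools, while control pools 1 and 2 had slides of another run of numbers. The phytogenic mean exceeded control pool 1 by a median of 0.55, control pool 2 by 0.51 and control pool 3 by 0.47. On a scale from 0 at the phytogenic mean to 1 at the mean of control pools 1 and 2, control pool 3 had a median position of 0.91 (range from 0.26 to 1.51), and it was below 0.5 in 4 sequences. It was above the mean of the other 2 control pools, and so nearer to the phytogenic mean, in 74 of the 100. In 53.8% of the 5165 sequences it was above that mean, whichever side the phytogenic mean lay on. It was the highest control pool in 37 of the 100, against 16.5% of the 5165. The selection used the control values, so these differences from the 5165 may be partly built in. With the deposited log2 table, used without scaling, control pool 2 was the highest control pool in 98 of the 100. What the slide run contributes was not tested. Within the run of slides that holds both diets, the median of the least changed probes was 0.38, against 0.42 with all arrays. The selection already required every probe to be above control pool 3 in each phytogenic pool. A positive median was therefore built in, and only 22 of the 100 stayed among the first 100 with this control alone. All 6 arrays were scanned on 1 day, control pools first, and the order of scanning and the diet cannot be told apart.

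**Figure D4:**
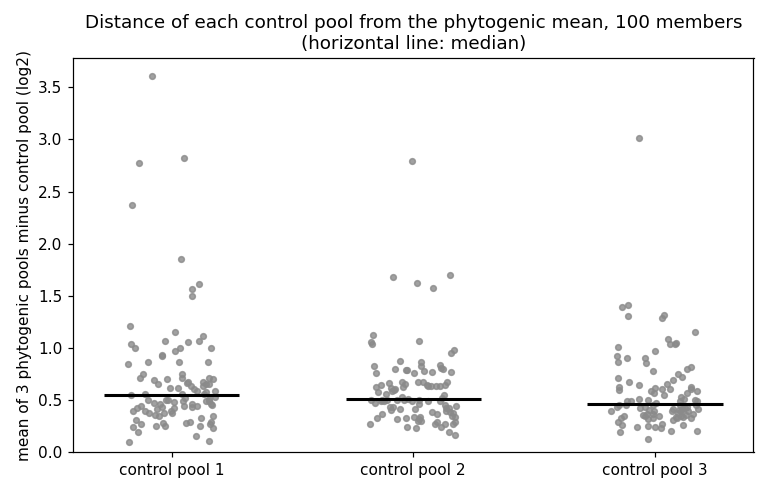
Mean of the 3 phytogenic pools minus each control pool (log2) for the 100 sequences, 1 point per sequence, with the median as a line. The medians are 0.55, 0.51 and 0.47 for control pools 1, 2 and 3, and the highest point, 3.60, is cDN07P0006C19.F.ab1 against control pool 1.

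By origin, 50 of the 100 sequences were cDN clones, 28 were contigs named by number alone, 16 were contigs of the Seabream assembly, 4 were SCT clones, 1 was a contig of the Mackenzie set and 1 came from another assembly. Among the 5165 sequences with every probe well above background on the phytogenic arrays, these origins held 40.6%, 31.1%, 24.2%, 3.00%, 1.08% and 0.0194%. The 50 cDN clones were spread over 13 name prefixes, each shared by many clones. Of the 100, 7 were from cDN04 (2.96% of the 5165), and 6 each from cDN02 (4.78%), cDN07 (3.66%) and cDN10 (2.96%). From cDN03 there were 0, although it held 205 of the 5165 (3.97%). From cDN03, cDN03P0004H09.F.ab1 and cDN03P0004O13.F.ab1 did meet the conditions, at ranks 119 and 120, past the limit of the list. These prefixes were named after their counts were seen.

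Which sequences reach the list depended on the scaling between arrays and on the signal and background correction used. All probes of 97 sequences still met the conditions when the 75th percentile was taken over probes well above background on all 6 arrays, 74 after quantile normalization, 53 when arrays were centered on their median, 52 with the normexp background and 54 with the deposited log2 table, used as it is without scaling. With normexp, the least changed probe was below 0 in Contig2801 (-0.050) and in cDN12P0005A20.F.ab1 (-0.013). The least changed probes of the list start at 0.243, and shifts of whole arrays by a constant, as in median centering, were too small to bring them to 0. Leaving aside the alternatives that change the detection condition or the number of probes required, 9 sequences were among the first 100 under every alternative: CL3310Contig1, cDN10P0001C07.F.ab1, SCT1103_E03_JP14_3E3_012.ab1, Contig2821, Contig2822, cDN02P0003K19.F.ab1, cDN02P0003I22.F.ab1, CL379Contig1 and Contig607. With every probe required to be well above background on all 6 arrays, 81 of the 100 stayed. CL3310Contig1 and cDN10P0001C07.F.ab1 were not among these.

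**Figure D5:**
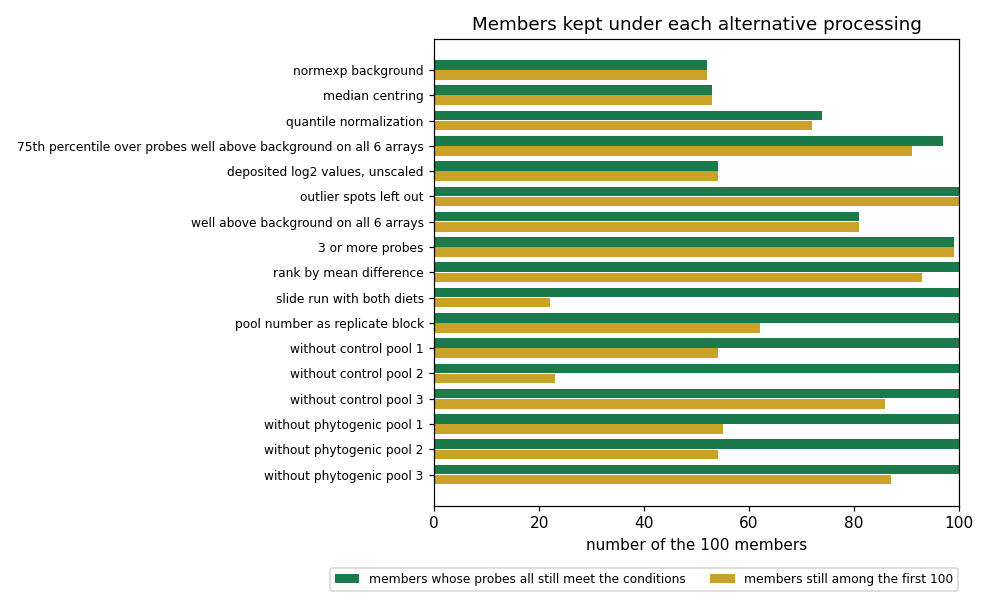
Number of the 100 sequences whose probes all still met the conditions (green) and number still among the first 100 (yellow) under each alternative processing. Settings that use fewer arrays keep all 100 by construction and let more sequences in, so that 22 of the 100 stay among the first 100 within 1 run of slides and 23 without control pool 2.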

How the data were processed

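Spot intensities of the 6 arrays were deposited as Feature Extraction 10.7.3.1 gave them, per the file headers (the paper names another version), with background subtracted and trends removed within the array and no scaling between arrays. The authors also deposited a log2 table of the series, which matches, spot by spot and within 5e-09, log2 of the signal after background subtraction. Its column medians were 8.25, 8.82 and 8.20 for control and 8.51, 8.57 and 8.60 for phytogenic pools 1, 2 and 3. It was used as an alternative. Single-color values have no direction.

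Control spots were left out. Processed signals were taken to log2 and averaged per probe, and each array was scaled to its 75th percentile over probes, the normalization of the paper's methods. For a probe to be well above background on an array, at least 50% of its spots had to carry that flag. Sequences with 2 or more probes, all of them well above background on the 3 phytogenic arrays and without overlap between the diets, were ranked by the least changed probe, and 100 were kept. The sequences, lists and alternatives were chosen with earlier results of these data known. The 20 first ranks, the ranks next to the limit, the extremes of control signal, the widest probe range and the sequences with most probes were named by rule, any other sequence after its values were seen, and the prepared lists of marker genes could not be used, since the files pair no sequence with a gene. Since the selection used the diet contrast, no test was run and SDs are over 3 pools, whose number limits the precision. The code was tested on simulated data. Python 3.11.15, pandas 2.3.3, numpy 2.4.6, matplotlib 3.10.9, and limma 3.58.1 in R 4.3.3 with an offset of 50 for the normexp background on the median spot signal (no mean signal is in the files), were used.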

Additional observations from a re-analysis of the deposited data

How the results depend on the processing

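The alternatives were set with earlier results known. The count of sequences with control pool 2 highest and the count of sequences with every probe kept were followed over the alternatives after the data were seen. Before ranking, 134 sequences met the conditions. This became 84 with the normexp background, 72 with median centering, 744 with control pool 3 as the one control (its slide run holds both diets), and 291 with the pool number as a replicate block, and it ranged from 161 to 447 when 1 array was left out. Of the 100 sequences, 52 with normexp, 53 with median centering, 54 with the deposited values, 22 within the slide run and 62 with the replicate block were among the first 100, and from 23 (without control pool 2) to 87 (without phytogenic pool 3) with 1 array left out. All probes of 52, 53 and 54 met the conditions with normexp, median centering and the deposited values. Leaving out arrays or comparing only pools of the same number loosens the condition of no overlap, so more sequences pass by construction. The sources used here give nothing beyond the number that links same-numbered pools. Over 19812 probes their deviations correlated at -0.035, -0.16 and -0.023, and those of pools with different numbers at -0.25 to 0.28. The median of the least changed probes, 0.42, was 0.61 with the deposited values. In these, the median difference was 0.23 over the probes of the 5165 sequences with every probe well above background on the phytogenic arrays. In the other alternatives the median of the least changed probes lay between 0.28 and 0.45. Control pool 2 was the highest control pool in 27 of the 100 sequences, and in 46.0% of the 5165. In the 100, the count was 14 with normexp, 9 with median centering and 17 with quantile normalization. It was 45 with the percentile over probes well above background on all 6 arrays and 98 with the deposited values. Median centering and the other percentile shift whole arrays by a constant, which moves this count by construction. The unscaled table lacks the scaling between arrays and holds another signal, that after background subtraction, so its changes are not a constant shift. Its least changed probe went from 0.68 to 0.72 in cDN10P0005O02.F.ab1 and from 0.78 to 1.11 in Contig144. For the 20 first sequences the least changed probe is fixed by construction in 4 alternatives. In the other 13, 17 of 260 values moved by more than 1 SD between pools, 9 of them with normexp, and wide SDs hide large moves such as those given with each sequence.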

Other observations

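The condition of no overlap left out sequences with differences as large as those described. Of the 5031 sequences with every probe well above background on the phytogenic arrays that did not meet it, 313 had a least changed probe at or above that of rank 100, and the largest was 3.21 higher on the phytogenic-supplemented diet, above the 2.57 of the first rank. For each of these, at least 1 control pool reached the lowest phytogenic pool in at least 1 probe.

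Phytogenic pool 1 was the highest phytogenic pool in 55 of the 100 sequences, pool 2 in 27 and pool 3 in 18. Among the 5165 sequences with every probe well above background on the phytogenic arrays, the shares were 43.9%, 37.6% and 18.5%. Control pool 3 was the highest control pool in 37 of the 100 and in 16.5% of the 5165, and the lowest in 9 of the 100 and in 15.6% of the 5165. The selection used the values of the pools, so differences between the 100 and the 5165 may be partly built in. The order of the pools also depends on the scaling between arrays.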
